A study of Homo sapiens with 12 samples.

Results

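Transcript levels after ZA were set directly against those after SFN in MDA-MB-231 cells, an established line from a human breast tumour without hormone receptors that is widely used as a model of metastasis. The comparison took the 3 ZA libraries and the 3 SFN libraries of a series of 12, and all genes that passed a filter on low counts. These were 15142 of the 57905 genes in the table, or 15464 when the library SFN 2 was left out. ZA cells had received 0.5 µM of ZA and SFN cells 1 µM of SFN, in each case for 48 h, so the doses of the compounds differed. Vehicle cells, whose 3 libraries are shown for orientation, had DMSO at 0.01% and water at 0.05%, and 3 further libraries came from cells given both compounds. The line itself is 1 established culture, its dishes were plated in triplicate, and no label says that the dishes of a group came from separate cultures, so the tests measure the spread between these dishes.

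ZA is a common abbreviation of zoledronic acid and SFN of sulforaphane, although the labels spell out neither; the gene that carries the symbol SFN is a different thing. Zoledronic acid is a bisphosphonate that blocks farnesyl diphosphate synthase in the mevalonate pathway, which supplies cholesterol and the lipid anchors of small GTPases. Sulforaphane is an isothiocyanate that modifies KEAP1, the adaptor that marks the transcription factor NRF2 for degradation, and NRF2 then drives genes for cystine uptake, glutathione synthesis, quinone reduction and NADPH supply through antioxidant response elements.

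Depth was 19200731, 25351286 and 15888471 counts for ZA 1, 2 and 3, against 15665680, 18301873 and 16314407 counts for SFN 1, 2 and 3. SFN 2 stood apart from the other libraries. Spearman's rho across genes between the GC content of a gene's transcripts and its deviation from the median library was -0.49, 0.59 and 0.66 in the ZA libraries and -0.44, -0.83 and -0.45 in the SFN libraries, so ZA 1 lay with SFN 1 and 3 and apart from ZA 2 and 3. The line's own identity genes were present: 12 such genes, among them VIM, CD44 and AXL, summed to between 1727 and 1986 FPKM in ZA and between 1698 and 1851 FPKM in SFN, and SPARC was the only one below 1 FPKM in all 6 libraries. Of 16 luminal breast markers, 8 were below 1 FPKM in all 6 and ESR1, PGR and FOXA1 were among those with 0 counts, while keratins made up most of a summed level of 409 to 521 FPKM in ZA and 256 to 390 FPKM in SFN. All 12 blood and immune markers were below 1 FPKM in all 6 libraries (summed 0.650 to 1.46 FPKM in ZA and 0.299 to 0.875 FPKM in SFN), and CD3E, CD3D, MS4A1 and HBB were among those with 0 counts. Of 12 fibroblast and endothelial markers, 8 were below 1 FPKM in all 6 libraries, and PDGFRA and DCN had 0 counts. COL1A1, COL1A2 and PDGFRB were above 1 FPKM in every ZA and SFN library except SFN 2. PECAM1, also on the list, had no entry among the deposited genes. The list summed to between 6.56 and 7.59 FPKM in ZA and between 2.85 and 6.54 FPKM in SFN.

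Results are given for 3 fits. The first holds all 12 libraries. The next leaves out SFN 2 (11 libraries). The last, added after the data had been seen and called the GC-adjusted fit, leaves out SFN 2 and vehicle 2 (10 libraries, 15353 genes) and carries each library's trend with GC content as an offset. Log2 fold changes are ZA minus SFN, so a negative value is a lower level in ZA; values after ± are standard errors for log2 fold changes and SD over 3 libraries for CPM, which are counts divided by the TMM-scaled library size (CPM).

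Genes of cystine uptake and quinone reduction were at lower levels in ZA than in SFN, and the BMP-responsive gene ID3 was at a higher level. SLC7A11, the cystine transporter subunit, averaged 102 ± 19.3 CPM in ZA and 170.5 ± 17.8 CPM in SFN, and NQO1, the quinone reductase used as a standard readout of NRF2, 244 ± 6.23 CPM in ZA and 333 ± 23.6 CPM in SFN (n = 3 each). Both were lower in ZA than in SFN in the GC-adjusted fit, by 0.41 ± 0.06 and 0.35 ± 0.05 on the log2 scale (edgeR adjusted p = 0.026 and 0.039). With the same offset and only SFN 2 left out the values were -0.41 ± 0.07 and -0.36 ± 0.07, but neither passed (edgeR adjusted p = 0.90 for both), so the calls also rest on leaving out vehicle 2. ID3, a helix-loop-helix inhibitor induced by BMP signals, averaged 12.2 ± 2.26 CPM in ZA and 4.46 ± 2.5 CPM in SFN, but its log2 fold change of 0.89 ± 0.19 in that fit did not pass (edgeR adjusted p = 0.21).

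Without the GC offset no gene passed. edgeR's quasi-likelihood test with Benjamini-Hochberg adjustment called 0 genes higher and 0 lower in ZA (0.00% in each direction) with all 12 libraries, and again 0 and 0 (0.00%) without SFN 2, with lowest adjusted p-values of 0.37 and 0.85. At an unadjusted p under 0.05 there were 491 genes higher (3.24%) and 1313 lower (8.67%) in ZA with all libraries, against 287 higher (1.86%) and 186 lower (1.20%) without SFN 2. DESeq2's Wald test also called 0 in both. In the authors' deposited table, 0 of 24535 genes with an adjusted p were under 0.05 for this pair of groups, and the lowest was 0.85. limma's voom with a quality weight per library went the other way and called 2203 genes higher (14.5%) and 2827 lower (18.7%) with all libraries, and 2410 higher (15.6%) and 2774 lower (17.9%) without SFN 2. With all libraries it weighted ZA 1, 2 and 3 by 0.320, 8.69 and 1.41, so ZA 2 counted most in its group. It weighted SFN 1, 2 and 3 by 1.91, 0.0273 and 1.76. With each library's GC trend removed it called 11 higher (0.0726%) and 16 lower (0.106%), and 0 in either direction (0.00%) without SFN 2. edgeR with the GC offset on all 12 libraries called 0 in either direction (0.00%), with 503 higher (3.32%) and 747 lower (4.93%) at an unadjusted p under 0.05.

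The GC-adjusted fit called 0 genes higher (0.00%) and 4 lower (0.0261%) in ZA, with 824 higher (5.37%) and 804 lower (5.24%) at an unadjusted p under 0.05. Besides SLC7A11 and NQO1 these were DCAF16, a substrate receptor of a cullin ubiquitin ligase, and SNHG16, a non-coding host gene of small nucleolar RNAs that was named after its values were seen. DCAF16 had 58.9, 55.1 and 54.3 CPM in ZA 1, 2 and 3, against 80.8, 76.9 and 81.8 CPM in SFN 1, 2 and 3, and 56.3, 62.9 and 67.5 CPM in vehicle. It was lower in ZA than in SFN by 0.45 ± 0.07 on the log2 scale (edgeR adjusted p = 0.041). SNHG16 had 59.1, 46.6 and 52.8 CPM in ZA, against 78.1, 60.5 and 81.5 CPM in SFN, and 60.8, 55.9 and 72.0 CPM in vehicle. It was lower in ZA than in SFN by 0.53 ± 0.09 (edgeR adjusted p = 0.043). SNHG16 overlaps ST6GALNAC2, and reads of overlapping genes cannot be told apart where no strand setting is given. In both genes all 3 ZA libraries lay below all 3 SFN libraries, SFN 2 included, as in 9.78% of all genes. On all 12 libraries, limma's voom with GC trends removed also had these 4 genes among its 16 lower (limma adjusted p = 0.048 for each). It called 0 without SFN 2. In edgeR the 4 calls rested on few libraries. With the offset and only SFN 2 left out, edgeR called 0 genes in either direction (0.00%), with a lowest adjusted p of 0.90 and 403 higher (2.61%) and 330 lower (2.13%) at an unadjusted p under 0.05; the calls appeared once vehicle 2, a library of neither group, was left out as well. In the GC-adjusted fit, leaving out SFN 1, SFN 3, ZA 2 or ZA 3 as well left 0 calls, whereas leaving out ZA 1 gave 641 higher and 527 lower of 15284 genes.

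SLC7A11 (ENSG00000151012; chromosome 4, 139085251 to 139163503 on GRCh37, minus strand) brings in cystine, the limiting precursor of glutathione. It had 124, 94.2 and 88.2 CPM in ZA 1, 2 and 3, against 158, 191 and 163 CPM in SFN 1, 2 and 3, and 101, 126 and 117 CPM in vehicle 1, 2 and 3. All ZA libraries lay below all SFN libraries and within or below the vehicle range. Its log2 fold change was -0.74 ± 0.16 with all libraries and -0.65 ± 0.16 without SFN 2, neither of which passed (edgeR adjusted p = 0.37 and 0.85). Its transcripts have a GC content of 35.9%, and the decile of tested genes with the lowest GC content had a median log2 fold change of -0.22 without SFN 2; with the offset the gene stood at -0.41 with a 95% interval of -0.53 to -0.29.

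NQO1 (ENSG00000181019; chromosome 16, 69740899 to 69760854 on GRCh37, minus strand) had 249, 245 and 237 CPM in ZA, against 325, 360 and 315 CPM in SFN, and 257, 327 and 277 CPM in vehicle. The ZA values were the closest to each other of the 3 groups and lay below every SFN value. Its log2 fold change was -0.45 ± 0.12 with all libraries and -0.39 ± 0.12 without SFN 2, close to the -0.35 ± 0.05 of the GC-adjusted fit. ME1, the cytosolic malic enzyme that makes NADPH, had 59.4, 49.9 and 46.3 CPM in ZA, against 78.4, 97.6 and 75.3 CPM in SFN, again without overlap. Its log2 fold change of -0.38 ± 0.07 in the GC-adjusted fit did not pass (edgeR adjusted p = 0.14).

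**Figure D1:**
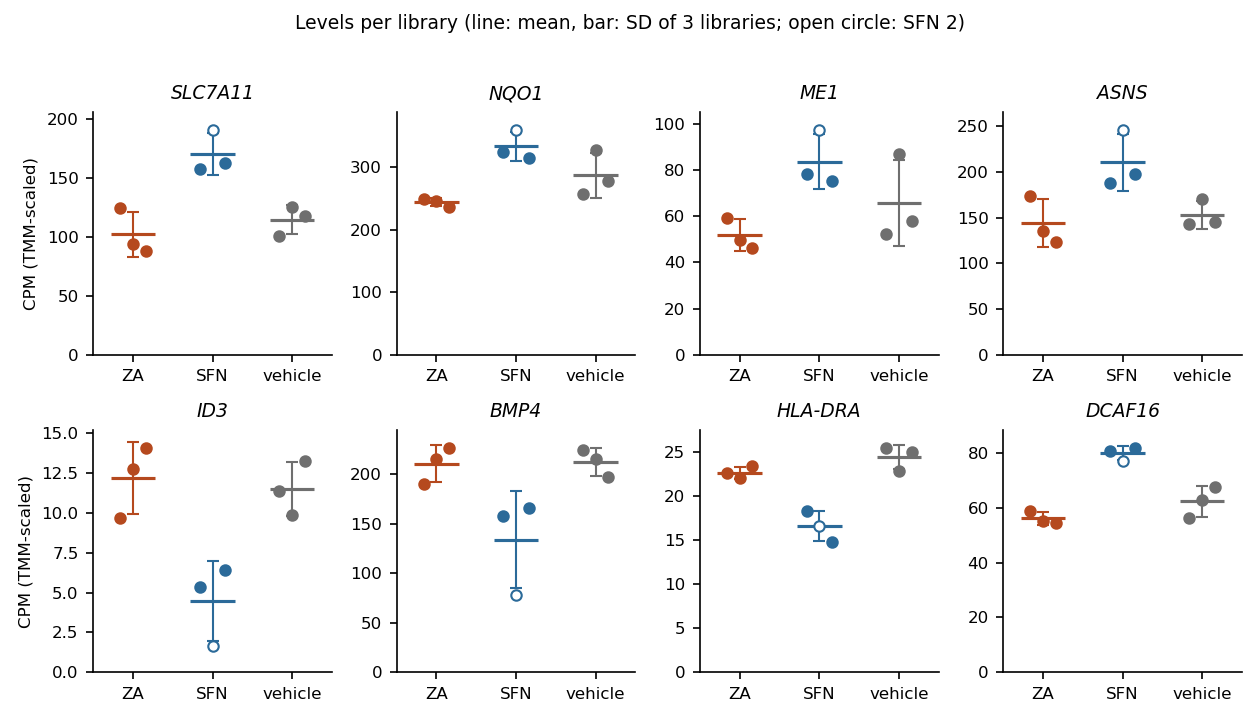
Levels of 8 genes in each library (y axis, TMM-scaled CPM on a linear scale from 0; x axis, ZA, SFN and vehicle; points are libraries, lines means and bars SD over 3 libraries; the open circle is SFN 2). In all 8 genes no ZA point lies among the SFN points, and in SLC7A11 the ZA values of 88.2 to 124 CPM lie below the SFN values of 158 to 191 CPM. Of all genes, 9.80% separate with ZA higher and 9.78% with ZA lower.

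The promoters of NQO1, ME1 and of ASNS, an amino acid stress gene described further on, are shown because NRF2 and ATF4 act through short promoter elements; SLC7A11 is named only. The windows run from 250 bases before to 50 after the RefSeq start site on GRCh38.p14, all on the minus strand, and capitals mark matches on either strand to the antioxidant response element core TGACNNNGC or to the ATF4 element TGATGNAAN. They lie at chr16:69726511-69726810 (NQO1), chr6:83431002-83431301 (ME1) and chr7:97872359-97872658 (ASNS).
NQO1: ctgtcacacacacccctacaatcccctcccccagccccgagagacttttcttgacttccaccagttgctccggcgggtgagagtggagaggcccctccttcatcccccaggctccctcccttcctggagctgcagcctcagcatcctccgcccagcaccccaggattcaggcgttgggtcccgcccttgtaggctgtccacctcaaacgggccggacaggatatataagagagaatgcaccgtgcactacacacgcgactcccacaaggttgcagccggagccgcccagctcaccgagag
ME1: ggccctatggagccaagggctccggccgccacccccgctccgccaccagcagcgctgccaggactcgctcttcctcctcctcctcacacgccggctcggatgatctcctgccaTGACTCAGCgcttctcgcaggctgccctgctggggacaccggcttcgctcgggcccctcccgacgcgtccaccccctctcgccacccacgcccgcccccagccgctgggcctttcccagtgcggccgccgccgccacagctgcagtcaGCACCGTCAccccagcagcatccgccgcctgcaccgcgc
ASNS: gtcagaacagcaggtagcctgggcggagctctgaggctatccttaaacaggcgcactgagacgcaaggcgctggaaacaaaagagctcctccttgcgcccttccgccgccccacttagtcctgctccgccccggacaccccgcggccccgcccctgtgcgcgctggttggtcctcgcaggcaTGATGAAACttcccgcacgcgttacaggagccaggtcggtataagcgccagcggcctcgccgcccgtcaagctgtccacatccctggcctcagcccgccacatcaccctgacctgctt
ME1 holds 2 matches to the antioxidant core, starting at position -137 and, on the opposite strand, at position 11 from the start site; the upstream match also contains the AP-1 letters TGACTCA. ASNS holds 1 match to the ATF4 element at position -68, and a further ASNS window held none. The NQO1 window holds neither motif, which says only that these letters are not in these 300 bases. Of 35116 promoters of this length, 13.3% hold the antioxidant core and 3.61% the ATF4 element; counted by gene symbol, 16.1% of 27305 symbols hold the core, as did 9 of the 25 tested NRF2 targets with a window. The ATF4 element was in 4 of 17 stress response genes with a window (ASNS, CHAC1, ATF3 and SLC3A2), against 4.45% of symbols.

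Across the whole NRF2 list, log2 fold changes were below 0 for most members in each fit, though only narrowly with all libraries. Of 39 listed genes 35 were tested. Their median log2 fold change was -0.07 with all libraries (19 below 0), -0.13 without SFN 2 (24 below 0) and -0.13 in the GC-adjusted fit (32 below 0), beside medians of 0.02, 0.0025 and -0.0013 over all genes. With the offset on all 12 libraries it was -0.19 (27 below 0), beside -0.0037 over all genes, and no member was called. The GC-adjusted fit called 2 members lower and 0 higher, and at an unadjusted p under 0.05 it had 10 lower and 0 higher, against 5.24% and 5.37% of all genes. With the 6 libraries as measured, 10 members had all ZA libraries below all SFN libraries and 1, SRXN1, had them above, where 9.78% and 9.80% of all genes did so. Against SFN 1 and 3 alone 13 lay below and 1 above (12.8% and 12.3% of all genes), and after the GC offset 14 lay below (13.3% of all genes).

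By role, the glutathione synthesis genes pointed the same way. GCLC, the catalytic subunit of glutamate-cysteine ligase, had 31.5, 32.7 and 31.6 CPM in ZA, against 40.4, 72.7 and 39.2 CPM in SFN, and GCLM, its modifier subunit, 185, 152 and 145 CPM in ZA, against 204, 321 and 200 CPM in SFN. Neither gene's groups overlapped, and SFN 2 was the highest library in both. Their log2 fold changes in the GC-adjusted fit were -0.21 ± 0.09 and -0.16 ± 0.06 and did not pass (edgeR adjusted p = 0.46 and 0.41). Glutathione reductase GSR stood at -0.16 ± 0.08.

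Among reductases, AKR1C3 (-0.25 ± 0.12), AKR1B1 (-0.24 ± 0.07), AKR1C1 (-0.39 ± 0.37), CBR3 (-0.25 ± 0.15) and CBR1 (-0.12 ± 0.09) all had negative GC-adjusted values that did not pass, and AKR1C1 was measured at only 1.33 to 1.43 CPM in ZA and 1.49 to 2.43 CPM in SFN. Of the NADPH-supplying enzymes other than ME1, TALDO1 stood at -0.27 ± 0.08 and IDH1, TKT and PGD between -0.05 and 0.02. In the thioredoxin system TXN stood at -0.15 ± 0.06 and the peroxiredoxin gene PRDX1 at -0.09 ± 0.06. TXNRD1, thioredoxin reductase, had 1075, 1094 and 1076 CPM in ZA, against 1188, 1670 and 1180 CPM in SFN; with the offset its value was -0.05 ± 0.06, with a 95% interval of -0.18 to 0.08.

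Among the iron and heme genes, the direction of FTL turned when SFN 2 was left out. FTL, the ferritin light chain, had 2201, 2411 and 2311 CPM in ZA, against 2908, 528 and 2686 CPM in SFN. SFN 1 and 3 were above every ZA library and SFN 2 far below, so the log2 fold change was 0.18 with all libraries and -0.28 without SFN 2; the GC-adjusted value of -0.41 ± 0.07 did not pass (edgeR adjusted p = 0.12), and ferritin pseudogenes make this count uncertain. HMOX1, heme oxygenase, had 9.88, 15.3 and 19.7 CPM in ZA, against 9.88, 2.04 and 13.2 CPM in SFN, groups that overlapped, and its GC-adjusted interval ran from -0.23 to 0.51. SRXN1, sulfiredoxin, had 0.884, 1.19 and 2.03 CPM in ZA, against 0.581, 0.00 and 0.304 CPM in SFN; its positive log2 fold change of 1.5 ± 0.75 rests on levels near 1 CPM, did not pass, and the gene overlaps a neighbouring annotated locus. The efflux transporter genes ABCC1, ABCC3 and ABCC4 stood between -0.07 and -0.04 with the offset, and ABCC2, measured at 1.33 to 3.04 CPM in both groups, at -0.35 ± 0.35.

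**Figure D2:**
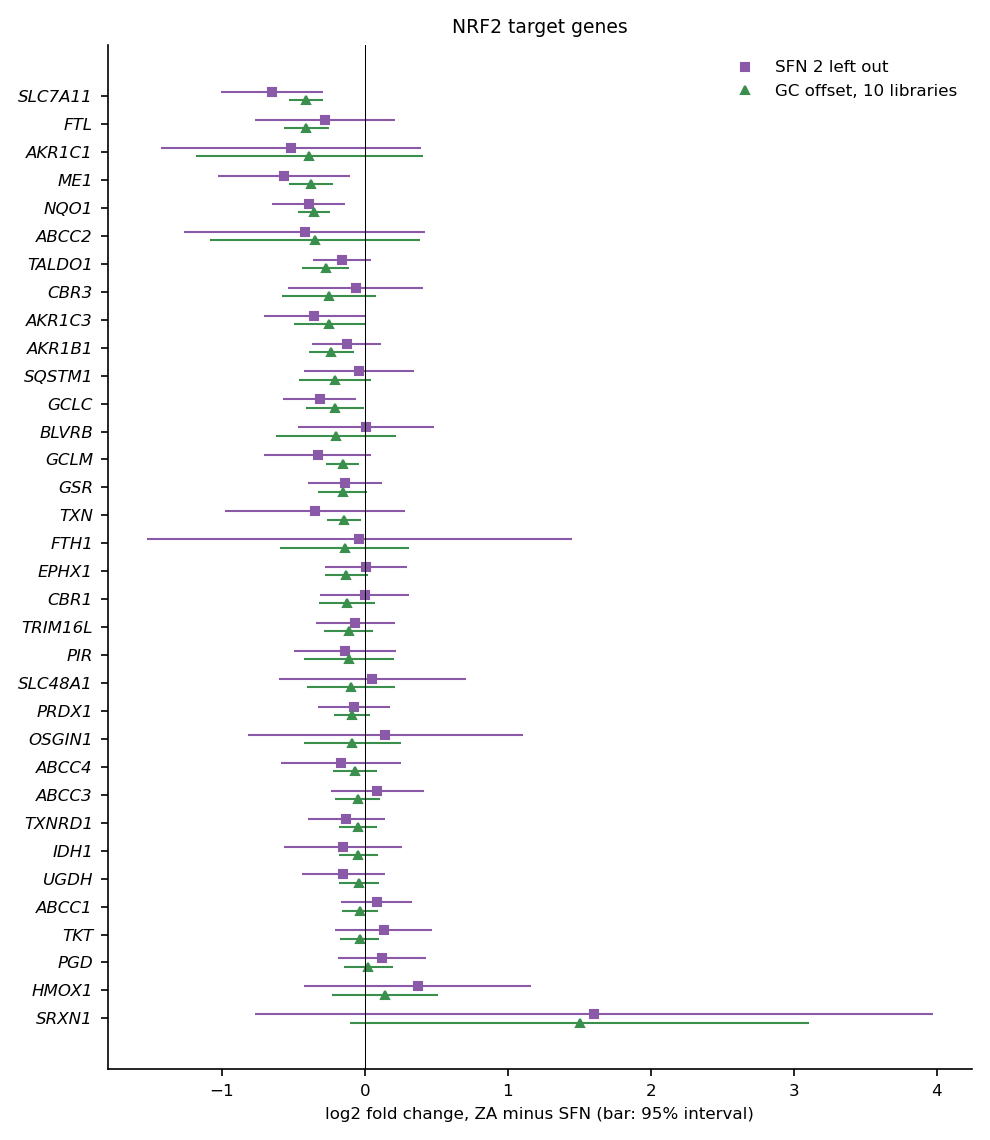
Log2 fold changes, ZA minus SFN, of 34 of the 35 tested NRF2 target genes (x axis, log2 scale; points are estimates and bars 95% intervals; squares, SFN 2 left out; triangles, GC-adjusted fit on 10 libraries), ordered by the GC-adjusted value. With the offset 31 of 34 points lie below 0, from SLC7A11 at -0.41 upwards, and SRXN1 stands alone above 1.

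Amino acid stress genes, the targets of ATF4 in the integrated stress response, showed a similar order. ASNS, asparagine synthetase, had 174, 136 and 123 CPM in ZA, against 188, 246 and 198 CPM in SFN, and 143, 171 and 145 CPM in vehicle. PSAT1, an enzyme of serine synthesis, had 171, 149 and 139 CPM in ZA, against 191, 233 and 213 CPM in SFN. In both genes every ZA library lay below every SFN library, with ZA 1 the nearest. Their GC-adjusted log2 fold changes of -0.34 ± 0.08 and -0.30 ± 0.07 did not pass (edgeR adjusted p = 0.25 and 0.24).

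Of the 24 genes of this list, all tested, 21 were below 0 in the GC-adjusted fit with a median of -0.12; none was called, and 9 were lower and 0 higher at an unadjusted p under 0.05 (5.24% and 5.37% of all genes). Without SFN 2 the median was -0.09 (15 below 0), and with all libraries it was 0.20 (9 below 0). With the offset on all 12 libraries, SFN 2 included, it was -0.09 (15 below 0). The direction of the list thus turned when SFN 2 was left out and also with the offset alone. The glycine-tRNA ligase GARS (-0.24 ± 0.07), the serine phosphatase PSPH (-0.38 ± 0.09), the serine synthesis enzyme PHGDH (-0.30 ± 0.11), the sestrin SESN2 (-0.38 ± 0.11), the glutathione-degrading enzyme CHAC1 (-0.37 ± 0.14) and the pseudokinase TRIB3 (-0.28 ± 0.08) had the lowest values besides ASNS and PSAT1. The transcription factor gene ATF4 itself stood at 0.11 ± 0.10 and the CHOP gene DDIT3 at -0.02 ± 0.13. ER chaperones had a median of -0.07, with 16 of 20 below 0 and none called. HSPA5, the main chaperone of the ER lumen, had 2388, 2114 and 1965 CPM in ZA, against 2613, 2644 and 2752 CPM in SFN, without overlap, and its GC-adjusted log2 fold change was -0.26 ± 0.06 (edgeR adjusted p = 0.24).

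No gene of the mevalonate pathway, in which the target of zoledronic acid lies, passed the test between the treatments. FDPS, which encodes farnesyl diphosphate synthase itself, had 79.4, 95.3 and 99.4 CPM in ZA, against 81.0, 61.4 and 77.2 CPM in SFN, and 104, 113 and 89.6 CPM in vehicle. The ZA and SFN values overlapped through ZA 1, and the GC-adjusted log2 fold change was 0.11 ± 0.07 with a 95% interval of -0.05 to 0.26; with the offset on all 12 libraries it was -0.05.

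All 26 genes of mevalonate and sterol synthesis were tested and none was called in the 3 fits; the median was 0.36 with all libraries, 0.13 without SFN 2 and 0.06 with the offset, where 15 were above 0, 3 were higher at an unadjusted p under 0.05 and 0 lower (5.37% and 5.24% of all genes). Those 3 were CYP51A1 (1.07 ± 0.43, at 6.03 to 10.3 CPM in ZA and 0.00 to 4.72 CPM in SFN), the phosphomevalonate kinase PMVK (0.45 ± 0.19) and the sterol reductase DHCR7 (0.18 ± 0.07). The measured groups of PMVK overlapped, and with the offset on all 12 libraries it stood at 0.008 ± 0.31. With all libraries and no offset, 1 member was higher and 3 lower at an unadjusted p under 0.05 (3.24% and 8.67% of all genes). Prenyltransferases and small GTPases, which carry or attach the lipid anchors made from this pathway, had a median of -0.03 with 14 of 26 below 0 and none called. RHOB, a GTPase gene often measured after statins and bisphosphonates, had 47.1, 53.9 and 59.5 CPM in ZA, against 53.3, 33.4 and 50.5 CPM in SFN, and its log2 fold change was 0.23 ± 0.19 with all libraries and -0.11 ± 0.08 with the offset.

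Among genes of BMP signalling, a list added after its values had been seen, 11 of 14 were tested; 7 were above 0 and 4 below in the GC-adjusted fit, with a median of 0.06 and none called. ID3 had 9.67, 12.7 and 14.1 CPM in ZA, against 5.36, 1.64 and 6.38 CPM in SFN, and 11.4, 9.88 and 13.3 CPM in vehicle. The ligand BMP4 had 191, 215 and 227 CPM in ZA, against 158, 78.0 and 166 CPM in SFN, and 225, 216 and 197 CPM in vehicle. ATOH8, a helix-loop-helix gene downstream of BMP receptors, had 9.78, 11.4 and 12.2 CPM in ZA, against 5.81, 0.907 and 6.38 CPM in SFN.

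In these 3 genes every ZA library was above every SFN library, SFN 2 was the lowest of all, and the ZA values of ID3 and BMP4 reached into the vehicle range while the SFN values did not. Of the 11 tested members 5 separated with ZA higher and 0 with ZA lower, against 9.80% and 9.78% of all genes. Because the list was chosen with its values seen, these counts are descriptions only. The GC-adjusted log2 fold changes were 0.89 ± 0.19 for ID3, 0.29 ± 0.06 for BMP4 and 0.68 ± 0.15 for ATOH8, none of which passed (edgeR adjusted p = 0.21, 0.16 and 0.22). The BMP pseudoreceptor BAMBI (0.34 ± 0.15) and the inhibitory SMAD6 (0.19 ± 0.22) also separated the groups. ID1 did not: it had 85.5, 70.5 and 68.7 CPM in ZA, against 63.0, 21.3 and 71.0 CPM in SFN, and a GC-adjusted value of 0.01 ± 0.17. HEY1, a transcriptional repressor gene of the Notch and BMP pathways, had the lowest value, -0.89 ± 0.74, at 0.254 to 0.728 CPM in ZA and 0.510 to 1.03 CPM in SFN.

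Antigen presentation genes had mostly positive values. HLA-DRA, the alpha chain of an MHC class II molecule, had 22.6, 22.0 and 23.4 CPM in ZA, against 18.3, 16.7 and 14.8 CPM in SFN, and between 22.9 and 25.5 CPM in vehicle. The ZA values lay above all SFN values, and SFN 2 was in the middle of its group. The log2 fold change was nearly the same in each fit, at 0.45 ± 0.14 with all libraries, 0.45 ± 0.14 without SFN 2 and 0.49 ± 0.11 with the offset (edgeR adjusted p = 0.37, 0.85 and 0.24). All 24 genes of the list were tested; 21 were above 0 in the GC-adjusted fit with a median of 0.18, none was called, and 7 were higher and 1 lower at an unadjusted p under 0.05 (5.37% and 5.24% of all genes).

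Within that list the class II chains HLA-DPA1 (0.40 ± 0.13), HLA-DPB1 (0.43 ± 0.27) and HLA-DRB1 (0.42 ± 0.41) and the peptide loader HLA-DMA (0.38 ± 0.13, overlapping BRD2) had higher values than most, while the class II activator CIITA stood at 0.00075 ± 0.11. The class I chains HLA-B and HLA-C stood at 0.04 and 0.13, and counts of such related chains are uncertain where reads match several. The butyrophilins BTN3A1, whose intracellular domain binds phosphoantigens of the mevalonate pathway, BTN3A2 and BTN3A3 stood at 0.21 ± 0.13, 0.24 ± 0.10 and 0.28 ± 0.11. Interferon-stimulated genes had a median of 0.04, with 22 of 28 above 0, none called, and 5 higher and 1 lower at an unadjusted p under 0.05 (5.37% and 5.24% of all genes); IFIT1, an RNA-binding antiviral protein, had 69.1, 68.9 and 60.3 CPM in ZA, against 60.1, 124 and 57.0 CPM in SFN, with SFN 2 above every other library.

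Epithelial markers moved with SFN 2 and with GC content. Their 22 tested members, with a median GC content of 57.9%, had a median log2 fold change of 0.63 with all libraries, 0.30 without SFN 2 and 0.15 with the offset, and -0.0046 with the offset on all 12 libraries. KRT18, a simple-epithelium keratin that overlaps KRT8 in this table, had 206, 283 and 266 CPM in ZA, against 188, 200 and 186 CPM in SFN, without overlap; its log2 fold change was 0.27 ± 0.08 in the GC-adjusted fit and -0.42 with the offset on all 12 libraries, so its direction turned. CDH1, the E-cadherin gene that is low in this line, had 2.60, 2.58 and 1.71 CPM in ZA, against 0.711, 0.964 and 1.70 CPM in SFN. Its GC-adjusted log2 fold change of 0.91 ± 0.38 did not pass (edgeR adjusted p = 0.44). With the offset its groups overlapped, as ZA 3 at 1.70 CPM lay below SFN 3 at 1.73 CPM. Mesenchymal markers had a median of 0.02 with the offset, with 12 of 22 above 0. ZEB1, which overlaps ZEB1-AS1, was among the members below 0. It had 88.1, 68.3 and 61.4 CPM in ZA, against 95.2, 154 and 94.1 CPM in SFN. Its GC-adjusted log2 fold change of -0.23 ± 0.07 did not pass (edgeR adjusted p = 0.38).

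For DUSP5 the sign turned when SFN 2 was left out. DUSP5, a phosphatase induced by ERK signals, had 151, 147 and 147 CPM in ZA, against 173, 85.1 and 178 CPM in SFN. Every ZA value lay below SFN 1 and 3 and above SFN 2, and the log2 fold change was 0.03 ± 0.23 with all libraries, -0.25 ± 0.10 without SFN 2 and -0.36 ± 0.07 with the offset (edgeR adjusted p = 0.94, 0.85 and 0.16). The cytokine genes IL8 and IL6 had GC-adjusted values of -0.29 ± 0.07 and -0.29 ± 0.12. IL8 had 75.8, 55.3 and 49.2 CPM in ZA, against 83.1, 138 and 89.9 CPM in SFN. The CDK4 and CDK6 inhibitor gene CDKN2C had 45.6, 58.5 and 58.3 CPM in ZA, against 39.5, 43.1 and 35.6 CPM in SFN, without overlap, at 0.41 ± 0.09 in the GC-adjusted fit (edgeR adjusted p = 0.24) but -0.07 with the offset on all 12 libraries.

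The remaining genes named by the lowest unadjusted p had no call in the 3 fits. Among those with higher levels in ZA, the hyaluronan-binding protein gene KIAA1199 had 181, 206 and 213 CPM in ZA, against 145, 112 and 146 CPM in SFN, and 219, 196 and 177 CPM in vehicle, with a GC-adjusted log2 fold change of 0.38 ± 0.07 (edgeR adjusted p = 0.12); it overlaps MESDC2. The mucosal scavenger receptor gene DMBT1 (0.41 ± 0.09), CCDC3 (0.43 ± 0.08, overlapping OPTN), the junction protein gene PLEKHA7 (0.44 ± 0.09, overlapping RP11-466H18.1) and TUB (0.77 ± 0.19) also kept the 3 ZA libraries above the 3 SFN libraries. Of all genes 9.80% did so, and genes picked by a low p in this comparison tend to separate, so the separation is no further evidence. NPPB, which encodes a natriuretic peptide, had 26.9, 51.2 and 55.2 CPM in ZA, against 23.2, 15.4 and 26.3 CPM in SFN, with ZA 1 close to the SFN range.

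At 0.340 to 3.69 CPM over the 6 libraries, SERPINF2, TMEM139, FAM107A, GSDMB, ZNF704 and C1orf74 (which overlaps TRAF3IP3) had GC-adjusted values between 0.86 and 1.55, and the protease gene MMP24, which overlaps EDEM2, stood at 0.59 ± 0.16. Among those with lower levels in ZA, VMA21, an assembly factor of the vacuolar proton pump, had 117, 90.0 and 96.3 CPM in ZA, against 143, 209 and 153 CPM in SFN (-0.36 ± 0.07). The histone deacetylase gene HDAC9 had 52.3, 45.2 and 40.7 CPM in ZA, against 59.4, 62.4 and 64.3 CPM in SFN (-0.33 ± 0.08). The mitochondrial folate enzyme gene MTHFD2L (-0.41 ± 0.12), the pseudouridine synthase gene PUS7 (-0.35 ± 0.09), LPXN (-0.40 ± 0.11), C21orf91 (-0.34 ± 0.13), SCG5 (-0.57 ± 0.20) and FAM72D (-0.46 ± 0.12) separated all 6 libraries as well, as 9.78% of all genes did in this direction. FAM72D has near-identical copies that may share its reads. FUT4 (-0.48 ± 0.13, overlapping PIWIL4) and FEZF1 (-1.29 ± 0.33, overlapping FEZF1-AS1) separated the groups only without SFN 2.

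Splicing speckle and SR protein genes had a median that turned when SFN 2 was left out and was higher again with the offset. It was -0.03 with all libraries, 0.02 without SFN 2 and 0.10 in the GC-adjusted fit, where 22 of 30 were above 0, none was called, and 8 were higher and 0 lower at an unadjusted p under 0.05 (5.37% and 5.24% of all genes). SRSF7 (0.24 ± 0.08), SRSF1 (0.21 ± 0.08), RBM39 (0.14 ± 0.05) and the kinase gene CLK4 (0.30 ± 0.13) were among the 8. U2AF1L4, which overlaps PSENEN, had 2.34, 2.30 and 2.54 CPM in ZA, against 1.10, 0.0567 and 0.669 CPM in SFN (1.30 ± 0.35, edgeR adjusted p = 0.35). The helicase gene DDX39B stood at -0.04 ± 0.08 and the glycosyltransferase gene OGT at -0.0015 ± 0.06.

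**Figure D3:**
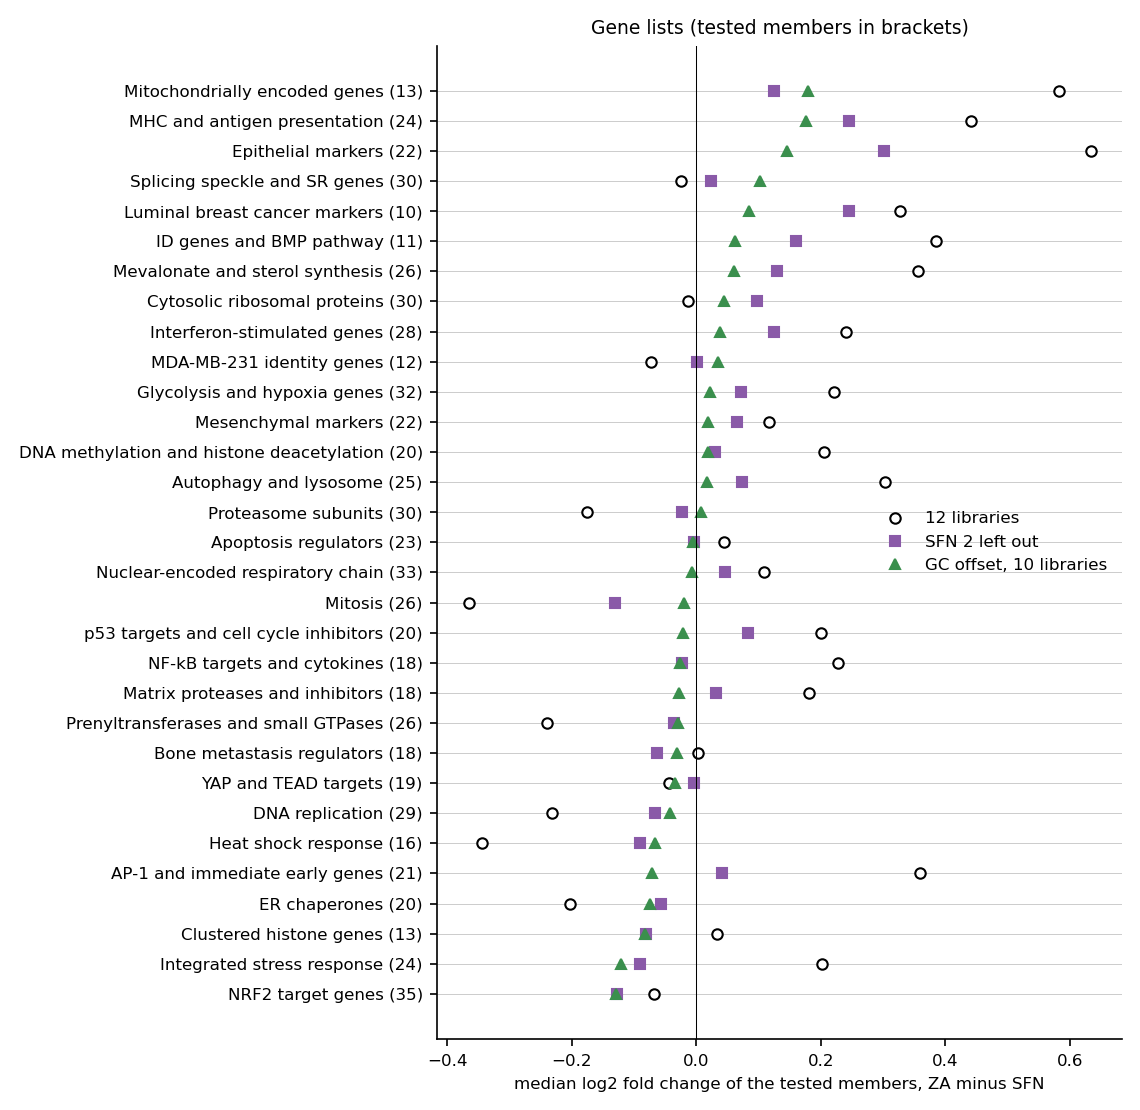
Median log2 fold change, ZA minus SFN, of each gene list with at least 10 tested members (x axis, log2 scale; circles, all 12 libraries; squares, SFN 2 left out; triangles, GC-adjusted fit; number of members in brackets). The medians span -0.37 to 0.63 with all libraries and -0.13 to 0.18 in the GC-adjusted fit, with NRF2 targets lowest and mitochondrially encoded genes highest in that fit.

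The 13 mitochondrially encoded genes, which code for respiratory chain and ATP synthase subunits, took 4.76, 4.50 and 4.26% of all counts in ZA together with the other mitochondrial transcripts, against 4.32, 1.60 and 3.94% in SFN, and 3.27, 0.775 and 1.89% in vehicle. All 13 were above 0 with all libraries (median 0.58), 11 were above 0 without SFN 2 (median 0.12) and 11 in the GC-adjusted fit (median 0.18), with none called in the 3 fits. MT-CO1, a cytochrome c oxidase subunit, had 9386, 9564 and 8623 CPM in ZA, against 8839, 5682 and 7386 CPM in SFN. MT-ND1, a complex I subunit, had 1961, 2008 and 1880 CPM in ZA, against 1866, 118 and 1647 CPM in SFN. SFN 2 was thus more than 10 times below the other SFN libraries for MT-ND1 but not for MT-CO1, and without it the log2 fold changes were 0.15 ± 0.62 and 0.18 ± 0.35.

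**Figure D4:**
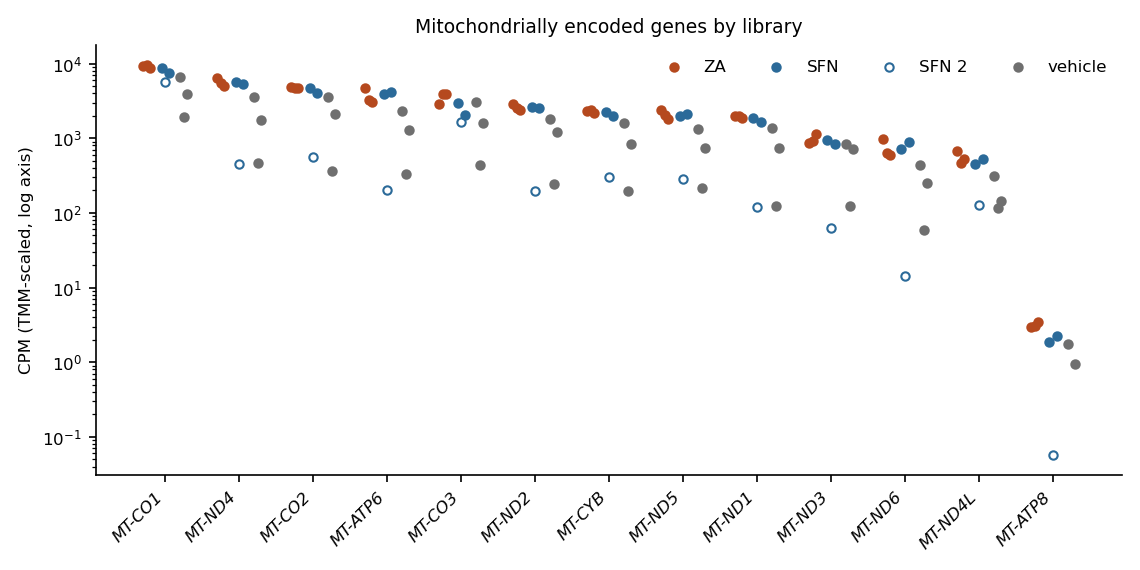
Levels of the 13 mitochondrially encoded genes in each library (y axis, TMM-scaled CPM on a log axis; x axis, genes; points are libraries of ZA, SFN and vehicle; open circles are SFN 2; MT-ATP8 had 0 counts in vehicle 2, which a log axis does not show). SFN 1 and 3 lie close to the ZA libraries, with 1866 and 1647 CPM for MT-ND1 beside 1880 to 2008 CPM in ZA, and SFN 2 lies below them in every gene.

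The remaining lists lay close to the median of all genes in the GC-adjusted fit, and none had a called member in the 3 fits. Medians were between -0.08 and 0.05 for heat shock, DNA replication, mitosis, p53 target, apoptosis, autophagy, proteasome, ribosomal protein, respiratory chain, glycolysis and hypoxia, histone, AP-1, NF-kB, YAP, bone metastasis, matrix protease and chromatin-modifying enzyme genes. Of the 29 DNA replication genes 22 were below 0, 6 were lower and 0 higher at an unadjusted p under 0.05 (5.24% and 5.37% of all genes), and RFC3, a clamp loader subunit, had the lowest value (-0.28 ± 0.08). The median of the mitosis genes shrank step by step with the libraries and the offset: it was -0.37 with all libraries, -0.13 without SFN 2 and -0.02 with the offset.

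The GC trend ran through the whole comparison. Across the 97.4% of tested genes with a GC value, Spearman's rho between GC content and log2 fold change was 0.79 with all libraries, 0.57 without SFN 2 and 0.06 in the GC-adjusted fit; genes of a library share its depth and base composition, so these are descriptions only. From the decile of genes with the lowest GC content to the decile with the highest, the median log2 fold change went up with GC, at -0.47 and 0.76 with all libraries, -0.22 and 0.27 without SFN 2, and -0.02 and 0.03 with the offset. Because ZA 2 and ZA 3 trended one way and the 3 SFN libraries and ZA 1 the other, GC trend and treatment cannot be fully told apart in these libraries.

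**Figure D5:**
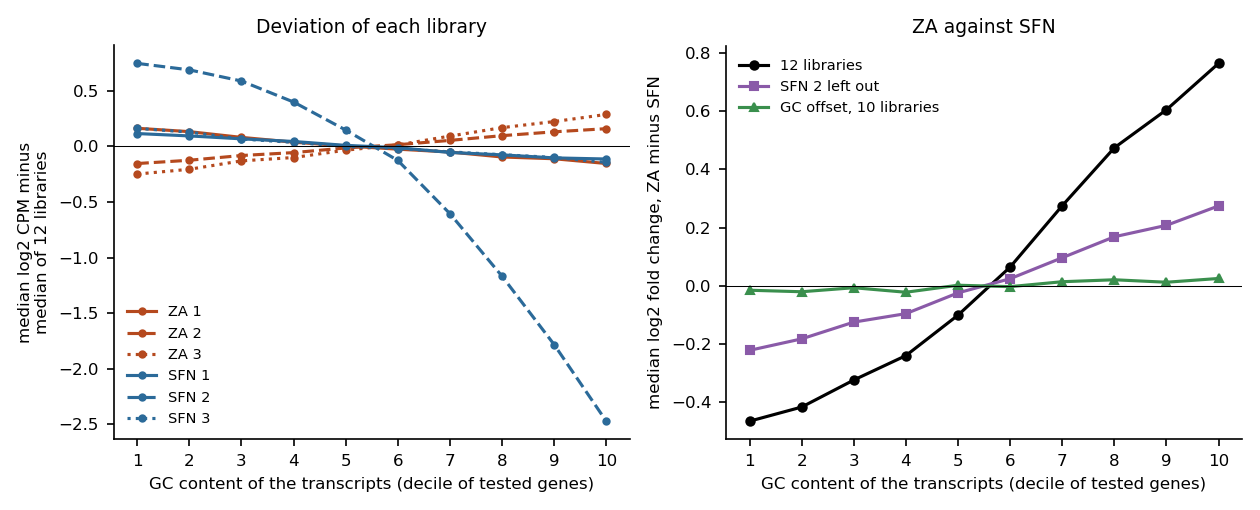
Left, median deviation of log2 CPM from the median of 12 libraries (y axis) by decile of tested genes ordered by GC content (x axis), with 1 line per ZA and SFN library. Right, median log2 fold change, ZA minus SFN, over the same deciles in the 3 fits. SFN 2 reaches -2.47 in the decile with the highest GC content, and the right-hand slope runs from -0.47 to 0.76 with all libraries and is near 0 with the offset.

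The spread between libraries sets what could be seen. The 95% interval of the log2 fold change lay wholly within 1 in either direction for 6989 genes (46.2%) with all libraries, 10520 (68.0%) without SFN 2 and 12061 (78.6%) in the GC-adjusted fit, with median half-widths of 0.62, 0.49 and 0.27. For those genes a difference of over 2-fold between ZA and SFN lies outside the interval, and for the others no such bound was reached with these libraries.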

How the data were processed

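Total RNA was sequenced from 12 libraries in 4 groups of 3. Per the submitters' processing notes, reads were aligned with HISAT2 to GRCh37/hg19; which counter, strand setting and annotation release were used is not given in the sources used here. For each gene the authors deposited raw counts, FPKM, a log2 fold change, a p-value and its adjusted value. Counts were tested with edgeR 4.0.16 (R 4.3.3): filterByExpr, TMM, group means over all libraries, robust quasi-likelihood F test, two-sided, with p adjusted by Benjamini-Hochberg across every tested gene and a threshold of 0.05. The deposited FPKM values served only for cell identity. GC content came from GENCODE 29 transcripts, and the offset is a smoothing spline per library over 50 GC bins. DESeq2 1.42.0 and limma 3.58.1 were alternatives, and the edgeR procedure was tested on simulated data for the 12- and 11-library fits. Those simulated counts had the same spread setting for every gene and no GC trend, and the GC-adjusted fit on 10 libraries was not simulated. Named genes were first the protein-coding genes with the 10 lowest unadjusted p-values per direction at a mean of 1 CPM or more. They were taken from the 12- and the 11-library fit, neither of which called a gene. Up to 3 per list and a fixed set were named as well. Other list members were chosen after their values were seen. Genes overlapping a neighbour with 5% or more of their counts are marked. The genes, the 32 lists and the design were chosen with earlier results of these data known. Depth was 15265377 to 25351286 counts per library. Some listed or named genes are not reported here.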

Additional observations from a re-analysis of the deposited data

How the results depend on the processing

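The count of 0 genes called by edgeR in either direction, with all libraries and without SFN 2, was also 0 with DESeq2's size factors or Wald test, without or with a stricter low-count filter, with ZA and SFN libraries alone, and when any single ZA or SFN library was left out; vehicle and combination libraries were not left out singly. limma's voom with quality weights called 2203 higher and 2827 lower with all libraries and 2410 and 2774 without SFN 2; with GC trends removed it called 11 and 16 with all libraries. The GC-adjusted fit called 4 lower, as it did with DESeq2's size factors, but the offset with only SFN 2 left out called 0; leaving out 1 library gave 0 to 641 higher and 0 to 527 lower. The cause of these differences was not tested.

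Deviations of same-numbered ZA and SFN libraries correlated at -0.515, -0.238 and 0.379, and after the GC offset at -0.138, -0.0377 and -0.0137. Libraries with different numbers correlated at -0.441 to 0.494, and after the offset at -0.0481 to 0.111. Whether equal replicate numbers mark pairs was not tested. With the replicate block over ZA and SFN alone, 0 genes were called with all libraries and 2 higher without SFN 2 (among them EIF3C, whose near-identical copies make its count uncertain). With the block the GC-adjusted fit called 0.

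Of 66 named genes, 12 changed direction under some setting, none of them called by edgeR. With the GC offset on 12 libraries NDUFB7 was -0.53, CDKN2C -0.070, DUSP5 -0.36, KRT18 -0.42, HMGCS1 0.058, SQLE 0.12, FDPS -0.055 and RHOB -0.41. In the GC-adjusted fit DUSP5 was -0.36, HMGCS1 0.054, SQLE 0.15, RHOB -0.11, DDX39B -0.039, OGT -0.0015 and ABCC3 -0.051. HIST1H1E was 0.31 with the block on ZA and SFN alone. Leaving out 1 library at a time gave DUSP5 -0.25 to 0.19, HIST1H1E -0.55 to 0.35, SQLE -0.38 to 0.0067, DDX39B -0.010 to 0.56 and OGT -0.11 to 0.16. Replicates of a group differed by chi-square values of 5.7 to 245 per degree of freedom, so the spread between libraries was larger than counting error.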

Other observations

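EIF3C, a translation initiation subunit gene, was among the genes called higher in ZA with the replicate block on ZA and SFN libraries alone without SFN 2. It had 1172, 272 and 706 counts in ZA 1, 2 and 3, against 117, 205 and 58 counts in SFN 1, 2 and 3. Within ZA, replicate 2 lay far below the others. The gene has a near-identical copy in the genome, so its count is uncertain, and how reads were divided between the copies was not tested.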
